A study of Homo sapiens with 4 samples.

Results

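The AP-1 transcription factor genes JUN, JUNB, JUND, FOS, FOSB, FOSL1, FOSL2 and ATF3 were examined for H3K4me3, the trimethylated form of histone H3 lysine 4 that marks active promoters. The cells were MDA-MB-231, a human cell line grown from a triple-negative breast cancer, and chromatin immunoprecipitation followed by sequencing had been carried out in ARID1A knockout cells and in control cells. Each genotype had 1 H3K4me3 immunoprecipitate (IP) and 1 input, 4 libraries in all. The labels do not say how the knockout was made or whether it was 1 clone. The 8 genes were taken at 9 start sites in hg19, because ATF3 was entered with 2 starts lying 43336 bp apart. A member was any peak that overlapped the 2 kb on either side of a start. There were 17 such peaks among the 23588 of the knockout list and 9 among the 36677 of the control list.

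AP-1 is a dimer of basic leucine zipper proteins. A Jun protein (JUN, JUNB or JUND) pairs with another Jun, with a Fos protein (FOS, FOSB, or the Fos-related antigens FOSL1 and FOSL2) or with a member of the ATF group such as ATF3, and the dimer binds the TPA response element or the cAMP response element. FOS, FOSB, JUN, JUNB and ATF3 are immediate-early or stress-induced genes, transcribed within minutes of a stimulus, whereas JUND is more constantly expressed. FOSL1, also called FRA1, is abundant in invasive triple-negative breast cancer lines. ARID1A is a subunit of the BAF chromatin remodelling complex, and in mouse fibroblasts FOS and JUN proteins have been shown to bring this complex to enhancers.

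In knockout cells 7 of the 8 genes carried 1 or more short H3K4me3 peaks beside the start site, and in control cells all 8 carried a broad domain over it. JUND was the gene with no knockout peak within 2 kb. Among control peaks of 1305 tags or more, 84.2% held a knockout peak, against 28.4% of all control peaks. Of the 8 AP-1 domains that strong, 7 held one, so this count is not set apart from equally strong control peaks. The contrast of short and broad peaks was also general, with median widths of 300 bp in the knockout list and 2968 bp in the control list. Relative to the control tags, the summed knockout tags were highest at FOS and lowest at the second ATF3 start, and per kb of peak width they were highest at FOSB and again lowest at the second ATF3 start. No knockout peak lay over a start site of these 8 genes, and the share over all start sites was not computed. With 1 IP per genotype no difference between genotypes had a replicate check, no test was made, and every interval below is a 95% interval for counting error only, in which copies of 1 fragment count as separate tags.

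The libraries differed in depth and in where their tags fell. The knockout IP held 13391724 tags, of which 99.4% lay in peaks, and the control IP held 27748061 tags, of which 62.1% lay in peaks. The median peak was 300 bp wide with 419 tags in the knockout list and 2968 bp wide with 168 tags in the control list. The part of these library differences in the results at AP-1 genes was not tested.

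The stretch just before the start was inside a control domain and outside every knockout peak at all 9 starts, and its sequence is shown for the 3 Jun genes, FOS and FOSB as examples. The sequences are the 250 bases before the start in RefSeq (GRCh38.p14), written 5′ to 3′ along the gene. Their start is the one in that table and need not be the base used for the peak windows in hg19. Capitals mark exact matches to the cAMP response element (TGACGTCA), the TATA box (TATAAA) and the GC box (GGGCGG), on either strand.
JUN, chr1:58784048-58784297, minus strand: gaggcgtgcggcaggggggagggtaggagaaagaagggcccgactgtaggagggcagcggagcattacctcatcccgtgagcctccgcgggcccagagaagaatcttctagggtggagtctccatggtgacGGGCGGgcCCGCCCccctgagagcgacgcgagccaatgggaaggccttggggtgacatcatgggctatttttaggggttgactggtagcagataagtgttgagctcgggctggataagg
JUNB, chr19:12791236-12791485, plus strand: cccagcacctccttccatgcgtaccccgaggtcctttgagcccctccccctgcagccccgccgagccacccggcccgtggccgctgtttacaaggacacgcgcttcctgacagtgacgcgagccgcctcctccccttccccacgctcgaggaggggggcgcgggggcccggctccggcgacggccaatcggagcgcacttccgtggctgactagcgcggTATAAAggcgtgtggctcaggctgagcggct
JUND, chr19:18281623-18281872, minus strand: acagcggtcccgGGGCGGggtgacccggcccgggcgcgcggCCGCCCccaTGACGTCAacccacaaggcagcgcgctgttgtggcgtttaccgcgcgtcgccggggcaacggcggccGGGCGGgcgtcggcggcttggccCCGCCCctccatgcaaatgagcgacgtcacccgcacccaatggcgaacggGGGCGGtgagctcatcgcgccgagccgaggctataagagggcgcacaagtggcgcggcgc
FOS, chr14:75278578-75278827, plus strand: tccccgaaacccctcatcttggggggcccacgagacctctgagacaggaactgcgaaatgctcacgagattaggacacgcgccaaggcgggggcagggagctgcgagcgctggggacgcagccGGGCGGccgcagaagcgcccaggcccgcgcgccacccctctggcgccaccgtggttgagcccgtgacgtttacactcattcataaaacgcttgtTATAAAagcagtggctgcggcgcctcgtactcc
FOSB, chr19:45467746-45467995, plus strand: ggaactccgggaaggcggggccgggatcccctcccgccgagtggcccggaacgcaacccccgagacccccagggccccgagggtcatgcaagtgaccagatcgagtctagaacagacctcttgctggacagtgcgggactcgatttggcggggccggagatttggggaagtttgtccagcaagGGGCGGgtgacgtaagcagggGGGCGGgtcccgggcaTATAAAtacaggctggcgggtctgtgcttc

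The search covered 5 motifs on both strands in the 250 bases before the start. Only exact matches were counted, and bases farther upstream were not searched. FOSL1 had no entry in the table, so 7 of the 8 genes were searched, ATF3 only in the windows described below. The cAMP response element was found in JUND and in no other of the 7, and it was present in 1.65% of all 35116 promoter windows in the table. The TATA box stood 25 to 33 bases before the start of JUNB, FOS and FOSB, and was present in 10.7% of all windows. ATF3 has 2 windows in the table, and the TATA letters were also found in one of them, 225 to 230 bases before its start. These 2 windows lie farther apart than the 2 ATF3 starts used for the peaks. At least 1 of those starts is therefore not known to have been searched. The GC box was found in JUN, JUND, FOS, FOSB, FOSL2 and ATF3, and in 42.6% of all windows. The TPA response element (TGACTCA, which reads TGAGTCA on the other strand) and the CArG box of serum response factor were found in none of the 7 genes, and in 4.20% and 1.16% of all windows. In JUND the 5 GC boxes and the cAMP response element did not overlap each other. GC content lay between 62.0% in JUN and 74.8% in JUND for the sequences printed and was 69.6% in FOSL2, against a median of 58.0% over all windows. The 2 ATF3 windows were below that median, at 49.2% and 44.8%.

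**Figure D1:**
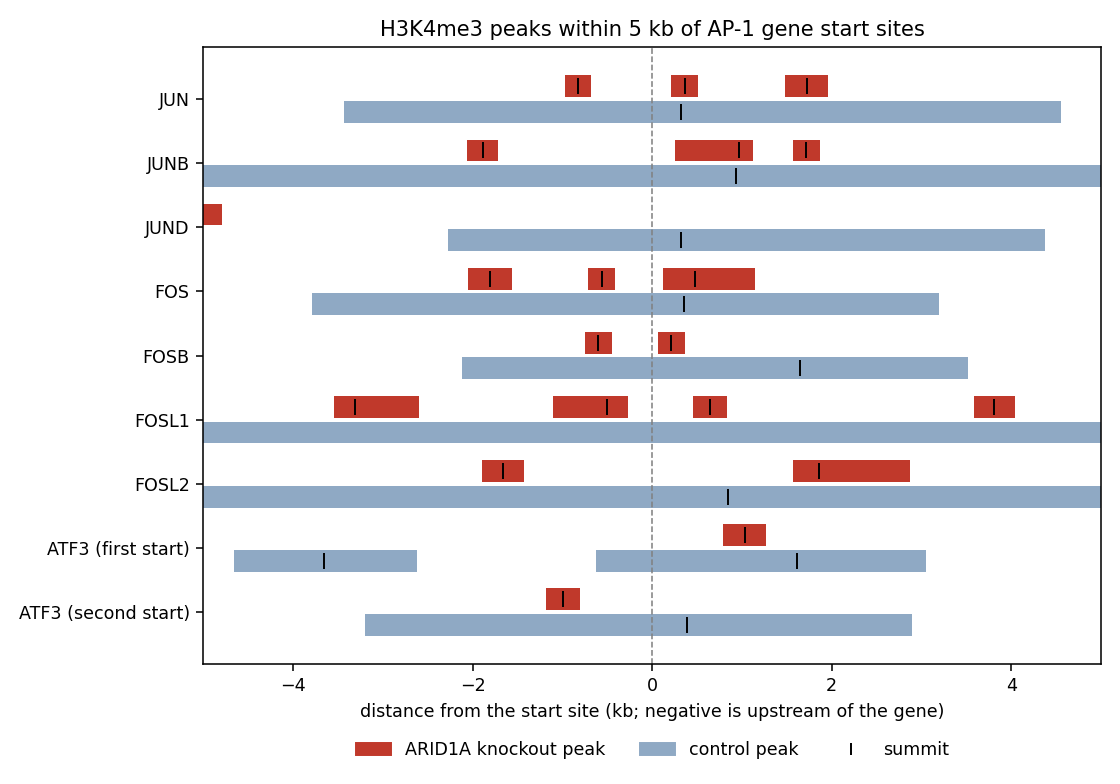
Position of H3K4me3 peaks within 5 kb of each start site, drawn along the direction of the gene in kb, with ARID1A knockout peaks (red) above control peaks (blue) and black ticks at the summits. A knockout peak lies within 2 kb of 8 of the 9 starts and none crosses the dashed line at the start, whereas every start lies inside a control peak.

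None of the 17 knockout peaks contained a start site, and all 9 control domains did. The knockout peaks were much the narrower, and the share over all start sites was not computed for want of an hg19 annotation, so this count is not set apart from other genes. The nearest knockout peak began 65 bp downstream of the FOSB start, and the next nearest 117 bp downstream of the FOS start. The largest gap at a start with a member peak was 1427 bp, at FOSL2. Between 250 bp upstream and 50 bp downstream of the starts there was no knockout peak at any of the 9. The summits of the 17 knockout peaks lay on both sides, 9 downstream and 8 upstream. In control cells 8 of the 9 summits lay downstream of the start, at 317 to 1645 bp, and the exception was FOSL1. The share of downstream summits over all start sites was not computed either, so these counts are not set apart from other genes.

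The count of start sites with a knockout peak depends on the width of the window, which was 2 kb. The peaks that reached just across its edge were one at JUNB from 2065 to 1714 bp upstream with 727 tags, one at FOS from 2052 to 1567 bp upstream with 898 tags, and one at FOSL2 from 1565 to 2877 bp downstream with 1167 tags. Just outside it was a peak 2603 to 3539 bp upstream of FOSL1 with 560 tags, then one 3581 to 4036 bp downstream of FOSL1 with 730 tags. The peak nearest to JUND began 4791 bp upstream.

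Of the 9 control domains at AP-1 genes, 8 held at least 1 knockout peak, against 28.4% of all control peaks. These domains were strong, however, and 8 of the 9 were in the top 10% of the control list by tags (1305 tags or more). In that 10% of the list 84.2% of peaks held a knockout peak, and 7 of the 8 AP-1 domains in it did, so their count was near that of equally strong control peaks. At least 2 knockout peaks were held by 6 of the 9, against 7.80% of all control peaks. Within the top 10% it was 6 of the 8, against 42.9%. The numbers are too small to call either share particular to these genes.

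All 17 knockout peaks overlapped a control peak, which the window nearly fixed, since the control domains covered the whole of it at every site except upstream of the first ATF3 start. Exactly 300 bp, the fragment length set by the peak caller, was the width of 6 of the 17, against 55.0% of the list. A knockout peak of 1 kb or more was found at FOS and at FOSL2, 2 of 17, while 3.78% of the list was that wide. The median over the 17 was 388 bp and 511 tags, against 300 bp and 419 tags over the list. The median over the 9 control domains was 6980 bp and 1833 tags, against 2968 bp and 168 tags over the list. At least 4 kb was reached by 8 of the 9, against 35.1% of all control peaks. The peak caller gave the AP-1 peaks a false discovery rate of 0.20 to 0.70% in the knockout list and 0.06 to 0.56% in the control list. Its fold enrichment over input, in the authors' deposited table, ran from 8.48 for the downstream FOSL1 peak to 563 for the upstream FOS peak in the knockout list. In the control list it ran from 27.6 at the first ATF3 start to 154 at the second, and the fold enrichments of the lists are not on a common scale.

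**Figure D2:**
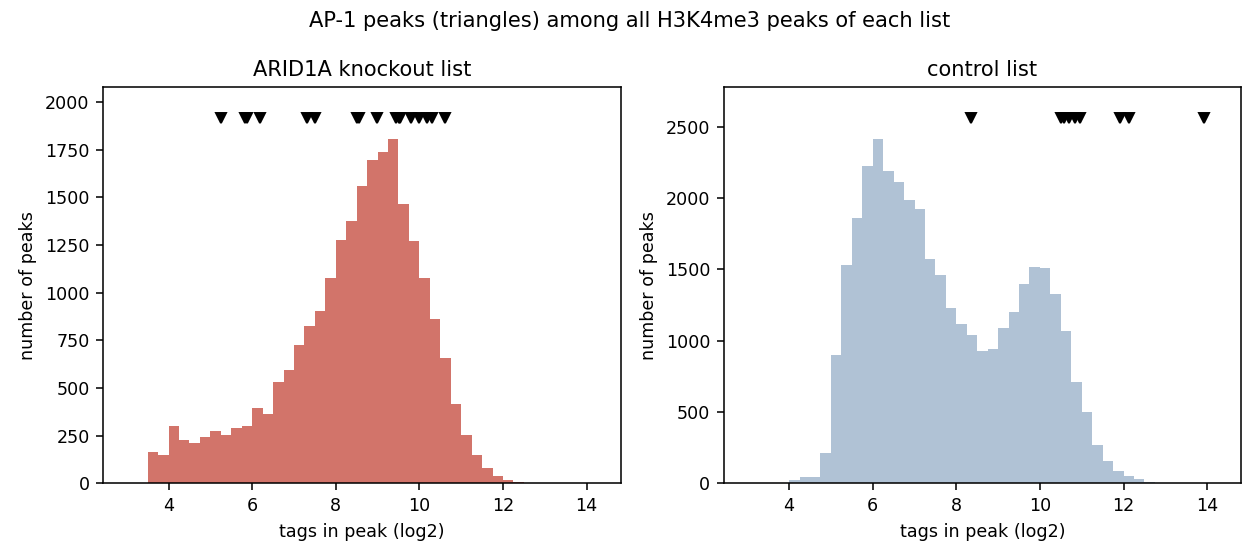
Number of peaks by tags per peak (log2 scale) in the ARID1A knockout list (left) and the control list (right), with triangles at the 17 knockout and 9 control peaks of the AP-1 genes. The knockout triangles spread over most of the distribution, from 38 to 1574 tags, while 8 of the 9 control triangles lie in the top 10%, at 1449 tags or more.

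JUN encodes c-Jun, the founding partner of FOS. In knockout cells it had 3 peaks, of 511 tags centred 826 bp upstream of the start, 38 tags centred 364 bp downstream and 73 tags centred 1719 bp downstream. In control cells it had 1 domain, chr1:59245236-59253214, with 1985 tags (1899 to 2074) over 7979 bp. The upstream peak therefore held most of the knockout tags, whereas the control summit was 317 bp downstream. The weakest knockout peak, with 38 tags (26.9 to 52.2), was the one that covered this summit, and it was in the lowest 6.58% of the knockout list by tags.

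JUNB, a Jun protein that can restrain JUN and is itself induced by growth factors and cytokines, lay in a much wider domain. In knockout cells it had peaks of 727 tags centred 1890 bp upstream, 374 tags centred 969 bp downstream and 57 tags centred 1716 bp downstream. A further 2 knockout peaks, of 26 and 79 tags, lay farther upstream in the same control domain, so it held 5 in all. In control cells the domain, chr19:12883691-12908455, had 4469 tags (4339 to 4602) over 24765 bp and reached 18619 bp upstream and 6145 bp downstream. By tags it ranked 70 and by width 33 in the control list. The control summit, 928 bp downstream of the start, was 41 bp from a knockout summit. The protein-coding neighbours of JUNB in RefSeq are HOOK2 and PRDX2, and how much of the domain belongs to JUNB was not analysed here.

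JUND, the Jun gene with the most constant expression, had no knockout peak in its window. The nearest lay 4791 bp upstream of the start, chr19:18397257-18397707, with 250 tags over 451 bp, and it overlapped no control peak. It was 2512 bp beyond the end of the JUND control domain. In control cells this domain, chr19:18388088-18394744, had 1530 tags (1454 to 1609) over 6657 bp, with its summit 319 bp downstream of the start. The control value was of the same size as those of FOS (1660) and FOSB (1449), both of which had knockout peaks. The lists hold only regions past the threshold of the peak caller, so the number of knockout tags over JUND is unknown and no ratio was made. In the top 10% of the control list, 579 of 3668 peaks likewise held no knockout peak.

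FOS encodes c-Fos, which does not pair with itself and needs a Jun partner to bind DNA. In knockout cells it had 3 peaks, of 898 tags centred 1810 bp upstream, 747 tags centred 561 bp upstream and 1574 tags centred 477 bp downstream. In control cells it had 1 domain, chr14:75741696-75748675, with 1660 tags (1581 to 1742) over 6980 bp. The peak of 1574 tags was 1024 bp wide, covered the control summit and ranked 1293 of 23588 by tags. The 3 knockout peaks together covered 25.9% of the control domain, the largest share among the 9, against a median of 10.4% over all 10427 control domains that held a knockout peak.

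FOSB encodes a Fos protein best known for long-lived splice forms in neurons. In knockout cells it had a peak of 1271 tags (1202 to 1343) centred 602 bp upstream and a peak of 159 tags centred 214 bp downstream, each 300 bp wide. In control cells it had 1 domain, chr19:45969134-45974773, with 1449 tags (1375 to 1526) over 5640 bp. The upstream knockout peak had 4237 tags per kb, rank 338 of 23588, which made it the densest of the 17. The control summit, 1645 bp downstream, lay outside both knockout peaks.

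FOSL1 lay in the control peak with the most tags of the entire list. In knockout cells the 2 peaks within 2 kb had 1020 tags (958 to 1085) centred 508 bp upstream and 59 tags centred 645 bp downstream. In control cells the domain, chr11:65652715-65690908, had 15546 tags (15303 to 15792) over 38194 bp, and the next peak in the list had 14620. By width it ranked 6 and by tags per kb 10. The control summit was 19466 bp upstream of the FOSL1 start, so the strongest signal of this domain was not at FOSL1, whose protein-coding neighbours in RefSeq are CCDC85B and C11orf68. The whole domain held 8 knockout peaks with 6036 tags together, of which the strongest, with 1492 tags, was centred 11233 bp upstream. In the control list 6 domains held 8 or more knockout peaks.

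FOSL2, also called FRA2, encodes the other Fos-related antigen, which lacks the strong activation domain of FOS. In knockout cells it had a peak of 692 tags centred 1665 bp upstream and one of 1167 tags centred 1854 bp downstream, and a further one, of 1360 tags centred 8636 bp downstream, fell in the same control domain. In control cells the domain, chr2:28608382-28627855, had 3864 tags (3743 to 3988) over 19474 bp, with its summit 839 bp downstream. By tags it ranked 124 in the control list and by width 90. The downstream knockout peak was 1313 bp wide, the widest of the 17, and ranked 314 of 23588 by width.

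ATF3, a stress-induced gene whose protein binds the cAMP response element and can repress transcription as a homodimer, differed between its 2 starts. At the first start, on chr1 at 212738676, knockout cells had 1 peak of 364 tags (328 to 403) centred 1031 bp downstream, and control cells had a domain of 328 tags (293 to 365) over 3681 bp. At the second start, at 212782012, knockout cells had 1 peak of 180 tags (155 to 208) centred 994 bp upstream, and control cells had a domain of 1833 tags (1750 to 1919) over 6093 bp. The control domain at the second start was thus the stronger and that at the first was the weakest of the 9, while the knockout peak was the stronger at the first start. In tags per kb the knockout peaks had 755 at the first and 484 at the second start, and the control domains had 89.1 and 301. No interval of these pairs overlapped its partner.

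**Figure D3:**
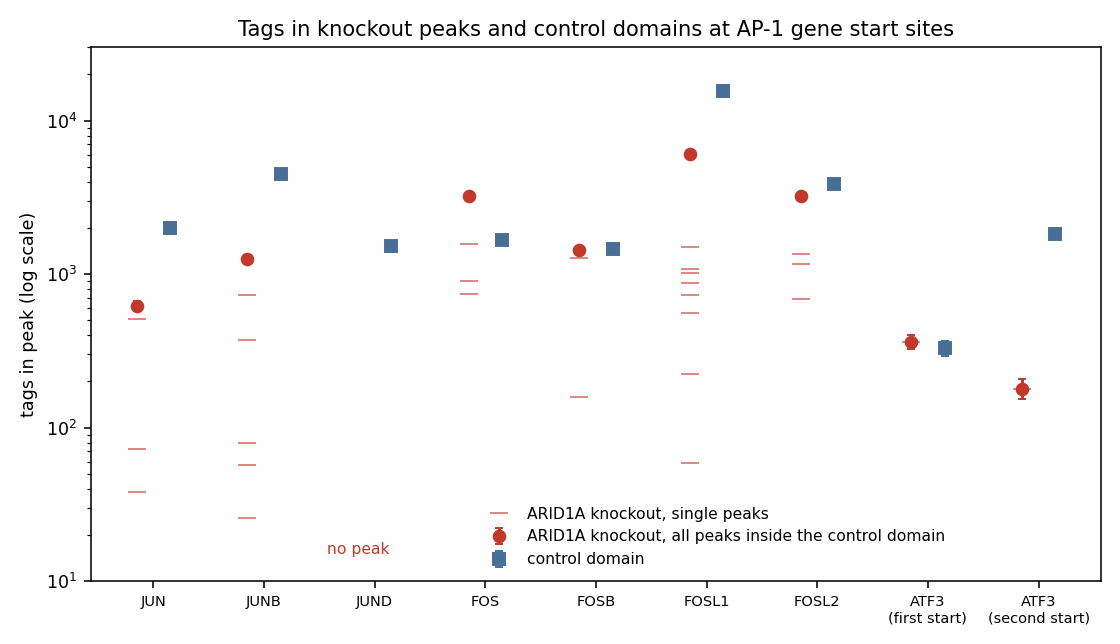
Tags in knockout peaks (red) and in the control domain (blue) at each start site, on a log scale. Red circles are the sum over all knockout peaks inside the control domain, red dashes the single peaks, blue squares the control domain, and bars the exact 95% Poisson intervals. At FOS the knockout tags exceed the control tags (3219 against 1660), JUND has no knockout peak, and the second ATF3 start has 180 against 1833.

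Because domains differ in width, levels of different genes were set in order per kb of peak. In knockout cells, with all knockout peaks inside a control domain pooled, FOSB had the highest density at 2383 tags per kb (2261 to 2510). FOS followed with 1778 (1718 to 1841), FOSL2 with 1253 (1210 to 1297), FOSL1 with 1176 (1146 to 1206) and the first ATF3 start with 755 (680 to 837). JUNB had 573 (542 to 606), JUN 573 (529 to 620) and the second ATF3 start 484 (416 to 560). JUN and JUNB could not be told apart within counting error, and the second ATF3 start overlapped both. In 3 domains these values include peaks more than 2 kb from the start. With the peaks of the 2 kb window alone, FOSL2 had 1040 tags per kb (993 to 1088), FOSL1 880 (828 to 934) and JUNB 764 (720 to 809). FOSL1 and JUNB then each overlapped the first ATF3 start.

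The order in control cells was different. FOSL1 had 407 tags per kb (401 to 413), the second ATF3 start 301 (287 to 315), FOSB 257 (244 to 270), JUN 249 (238 to 260) and FOS 238 (227 to 250). JUND had 230 (218 to 242), FOSL2 198 (192 to 205), JUNB 180 (175 to 186) and the first ATF3 start 89.1 (79.7 to 99.3). Neighbours in the run from FOSB to JUN, FOS and JUND overlapped in their intervals. Each control value is a mean over the whole domain, and control tags of the 2 kb window alone are not known. The FOSL1 domain was 38194 bp wide with its summit 19466 bp upstream, so its value is not the level at the FOSL1 start. The second ATF3 start was second in control cells and last among the starts with a peak in knockout cells.

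For each control domain with a knockout peak, the knockout tags were divided by the control tags on the log2 scale, with a pseudocount of 1, and centred on the median of all 10427 such domains (before centring −0.33). The control tags are those of the whole domain. The knockout tags are those inside knockout peaks, which covered 6.11% (second ATF3 start) to 25.9% (FOS) of the AP-1 domains that held any. A low ratio is therefore not by itself a lower level of H3K4me3 at the gene. FOS was highest among the AP-1 sites, with 3219 knockout and 1660 control tags and a centred ratio of 1.29 (1.20 to 1.37), above 80.7% of all such domains. The first ATF3 start had 0.48 (0.26 to 0.70), FOSB 0.31 (0.21 to 0.42) and FOSL2 0.07 (0.0012 to 0.14). FOSL1 had −1.03 (−1.08 to −0.99), JUN −1.34 (−1.47 to −1.21) and JUNB −1.49 (−1.58 to −1.40). The second ATF3 start was lowest, with 180 knockout and 1833 control tags and a ratio of −3.01 (−3.24 to −2.79), at the percentile 6.15 of all such domains.

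Divided by the library totals in place of centring, every value was higher by the same amount, from 2.01 for FOS and 1.20 for the first ATF3 start to −0.77 for JUNB and −2.29 for the second ATF3 start. The 8 centred ratios had a median of −0.48 and none was outside the middle 90% of all such domains, which ran from −3.30 to 2.72 with an SD of 1.79. The order of FOS, FOSL2 and the rest depends on the width of the peaks. Per kb of peak width the centred ratio was −0.035 for FOS and −0.28 for FOSL2, so both changed sign. FOSB (0.28) and the first ATF3 start (0.15) stayed above 0 on both scales, and JUN (−1.74), JUNB (−1.27), FOSL1 (−1.41) and the second ATF3 start (−2.25) stayed below it.

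The control summit lay inside a knockout peak at JUN, JUNB and FOS, 3 of the 8 domains with a knockout peak, against 45.3% of all such domains. At these 3 genes the nearest knockout summit was 47 bp (JUN), 41 bp (JUNB) and 128 bp (FOS) from the control summit. At the other 5 the distance was 584 to 1431 bp.

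**Figure D4:**
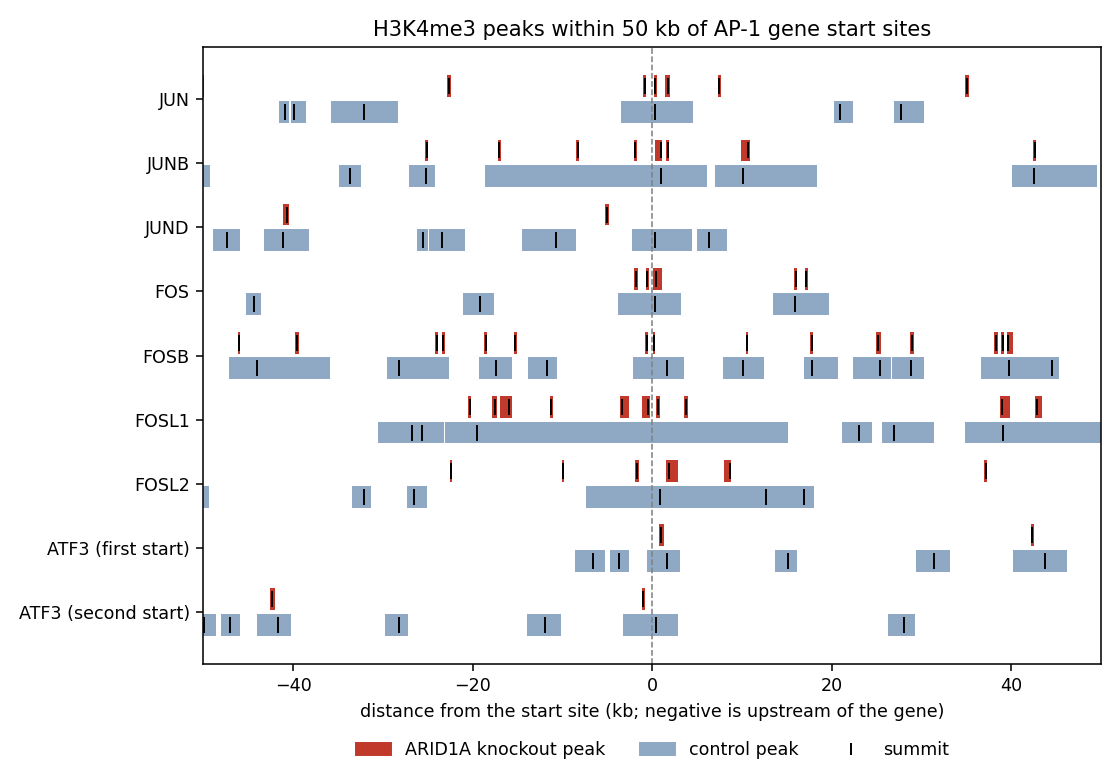
H3K4me3 peaks within 50 kb of each start site along the direction of the gene, with ARID1A knockout peaks (red) above control peaks (blue) and black ticks at the summits. FOSB lies among 15 knockout and 11 control peaks, whereas the knockout peaks around JUN and FOSL2 outside the central domain lie away from control peaks.

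The surroundings of the genes differed in how far the lists met. Between 2 and 50 kb from the starts there were 38 further knockout peaks, of which 29 (76.3%) overlapped a control peak, against 60.3% of the knockout list. There were 44 further control peaks, of which 15 (34.1%) held a knockout peak, against 28.4% of the control list. Around JUN, all 4 knockout peaks outside the central domain lay away from control peaks, and the other 5 control peaks held none. These 4 had 630 to 1057 tags, each more than any of the 3 peaks at the JUN start, and the nearest was centred 7488 bp downstream with 928 tags. FOSL2 likewise had 3 knockout peaks of 492 to 523 tags away from control peaks, centred 9935 and 22414 bp upstream and 37161 bp downstream.

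FOSB was in the densest stretch, with 15 knockout peaks, 14 of them inside control peaks, and 11 control peaks, 9 of them with a knockout peak. FOS had a second strong control domain downstream, chr14:75758964-75765153, with 1461 tags and its summit 15868 bp from the start. In knockout cells this domain held 2 peaks of 300 bp, with 472 and 191 tags. All 10 knockout peaks within 50 kb of FOSL1 and all 8 within 50 kb of JUNB lay inside control domains. JUND had 2 knockout peaks within 50 kb, the one described above and one of 389 tags centred 40700 bp upstream, and 7 control peaks.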

How the data were processed

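Groups follow the sample titles. The knockout list names its library K6 in its header, a name absent from the labels, and was matched to the knockout by its file name. The cell line labels of 3 libraries carry other final digits than the series title, whose name was used, and the inputs carry IgG as antibody label.

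Per the submitters' processing notes, Bowtie2 2.2.4, MACS 1.4.3 and hg19 were used. Per the file headers, MACS compared each IP with the input of its genotype at a p cutoff of 0.0001, with a fragment length of 300 bp and the larger library scaled to the smaller. The deposited tag counts are IP tags per peak, not normalized. The deposited score (10 times −log10 of the MACS p), fold enrichment (a ratio over local background) and false discovery rate (in percent) are the authors' values, used as filters and as descriptions within a list. Depth of the inputs was 17890122 tags for the knockout and 14878873 for the control.

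Overlap meant at least 1 bp. Tag counts carry exact Poisson intervals and ratios exact binomial intervals. The overlap and ratio steps were tested on simulated data. The tools were Python 3.11.15 with scipy 1.17.1, pandas 2.3.3, numpy 2.4.6 and matplotlib 3.10.9. The members, lists and motifs were chosen with earlier results of these data known, and every member gene is named. Summits and extents were oriented by the strand of the gene, which the promoter table gives for 7 of the 8 genes and which for FOSL1 is general knowledge. Other AP-1 genes were not analysed here, since they need an hg19 annotation. Promoters and neighbours came from RefSeq (GRCh38.p14), with no conversion of coordinates.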

Additional observations from a re-analysis of the deposited data

How the results depend on the processing

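Of the 22 alternative values for the counts and medians over the AP-1 genes, 19 kept within 1.5 times the reported value or within its counting interval. Start sites with a knockout peak, 8 as reported, were 7 with a window of 1 kb (FOSL2 lost), 9 with 5 kb (JUND gained), 7 with peaks wider than 300 bp alone (FOSB lost) and 8 in the other settings. Control domains with a knockout peak, 8 as reported, were likewise 7 with wider peaks alone and 8 otherwise. The control count of 9 was 8 where the summit had to be in the window (FOSL1 lost). The values that moved were the median knockout width of 388 bp, which was 1214.5 bp with peaks within 1 kb merged, and the median log2 ratio of −0.48, which was 0.24 after division by the library totals, by construction a constant shift, and −0.77 per kb of peak width. Of the 24 values for single sites, 13 moved out of their counting interval and 2 reversed, FOS to −0.035 and FOSL2 to −0.28 per kb of width. Those that moved were divided by the library totals, a constant shift, or taken per kb of width. The cause of the changes per kb was not tested. No paired analysis was possible because each group has 1 library.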
